A study of Mus musculus with 24 samples.

Results

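A set of 10 genes of the acute phase response, the change in secreted proteins that accompanies inflammation, was followed in adipocytes grown from 2 white fat depots. The genes are Lcn2, Saa3, Hp, Orm1 and 6 genes of the Serpina3 cluster, Serpina3c, Serpina3f, Serpina3g, Serpina3h, Serpina3m and Serpina3n. They are 10 of the 53465 genes in the deposited count matrix and were chosen by symbol, with results of these libraries already known. Which values decided the choice is not recorded, so every contrast counts as possibly used, and the fold changes and adjusted p-values below describe a fit over all tested genes without being independent evidence for these genes. The filter on low counts kept 9 of the 10 genes among 14785 tested genes. Serpina3f was left out by it.

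The study grew adipocytes in culture from stromal vascular cells of epididymal (eWAT) and inguinal (iWAT) white fat of mice that were either Senp2flox/flox (Cont) or Senp2flox/flox; Adipoq Cre (aKO), and gave them siNS or siC/EBPb. Each of the 8 combinations of depot, genotype and siRNA had 3 RNA-seq libraries, 24 in all. Both genotypes carry the floxed Senp2 allele, and the Adipoq promoter drives Cre in adipocytes, so cells of the culture that are no adipocytes would keep the allele. All cultures were induced for 2 days with dexamethasone, IBMX and insulin, and then kept 5 days in insulin. Dexamethasone is a glucocorticoid, a class of hormone that itself acts on acute phase genes, and every group received it. The labels do not state the age or sex of the mice, what siNS targets, or whether the replicates came from different cultures or mice. The p-values therefore reflect the spread among these libraries alone, and that spread may be technical. The title of the series concerns SENP2, an enzyme that removes SUMO from other proteins, and C/EBPbeta, the transcription factor encoded by Cebpb, in browning of white fat.

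In the acute phase response, cytokines such as IL-6 and IL-1 act through STAT3, NF-kB and members of the C/EBP family to change the output of secreted proteins, mainly from liver. C/EBPbeta was first described as a nuclear factor for IL-6 expression and is one of the factors that act on acute phase promoters. White adipocytes also secrete such proteins, among them lipocalin-2, serum amyloid A3, haptoglobin and orosomucoid. Lcn2 encodes lipocalin-2, which binds siderophores and so withholds iron from bacteria. Saa3 encodes a serum amyloid A of extrahepatic tissues, Hp encodes haptoglobin, which binds free haemoglobin, and Orm1 encodes an alpha-1 acid glycoprotein. The Serpina3 genes are mouse relatives of human SERPINA3, a serine protease inhibitor of the serpin family, and lie side by side in a cluster that expanded in rodents.

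In GRCm38 with GENCODE M21 annotation, Lcn2 (ENSMUSG00000026822) lies on the minus strand at chr2:32384633-32388252. Saa3 (ENSMUSG00000040026) lies on the minus strand at chr7:46711998-46715700, and Hp (ENSMUSG00000031722) on the minus strand at chr8:109575128-109579172. Orm1 (ENSMUSG00000039196) lies on the plus strand at chr4:63344560-63348163. The 6 Serpina3 genes share chromosome 12. Serpina3c (ENSMUSG00000066361) is on the minus strand at chr12:104146382-104153870, and the others are on the plus strand. Serpina3f (ENSMUSG00000066363) spans chr12:104214544-104221129, Serpina3g (ENSMUSG00000041481) chr12:104236245-104241939 and Serpina3h (ENSMUSG00000041449) chr12:104247905-104253669. Serpina3m (ENSMUSG00000079012) spans chr12:104338486-104394257 and Serpina3n (ENSMUSG00000021091) chr12:104406729-104414329. Serpina3h is annotated as a transcribed unprocessed pseudogene. Serpina3m overlaps Serpina3k on the same strand, with 60 shared exon bases.

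The Serpina3 genes are close copies, which bears on how reads could be assigned to them. Of the 100-base stretches of each gene's transcripts, 6.09% for Serpina3m, 3.6% for Serpina3h, 3.49% for Serpina3g, 3.4% for Serpina3f and 0.204% for Serpina3n also occur in transcripts of another gene, and none for Serpina3c. For Orm1 the share was 6.95%, all of it shared with Orm2. Lcn2, Saa3 and Hp shared no 100-base stretch with another gene. Over 50-base stretches the shares were 21.9% for Serpina3h, 20.4% for Orm1, 19.1% for Serpina3m and 15.5% for Serpina3g. They were 10.6% for Serpina3f, 6.9% for Serpina3n and 4.25% for Serpina3c. Serpina3c shared 50-base stretches with Serpina3m and with Serpina3n, which averaged 377.2 CPM against 9.416 CPM for Serpina3c. The sources used here give no read length, and values of Orm1 and the Serpina3 genes carry some uncertainty from reads that fit a neighbour.

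The RefSeq promoter table (GRCm38.p6) held 6 of the 10 genes: Lcn2, Saa3, Serpina3c, Serpina3f, Serpina3g and Serpina3n. Hp, Orm1, Serpina3h and Serpina3m were not matched. The 250 bases before each start were searched on both strands for a C/EBP motif, TTGCNNAA with its reverse complement TTNNGCAA, which is found in 9.56% of 32851 promoters of that length. Lcn2 had a match that begins 216 bases before the start and Saa3 one that begins 99 bases before it. Serpina3f matched too, and Serpina3c, Serpina3g and Serpina3n did not. A second motif, TTCNNNGAA, the core of STAT sites, is its own reverse complement and is found in 7.02% of promoters. It matched in Serpina3f and Serpina3g. These matches are letters in a window, and no binding was measured here. The stretches around the Lcn2 match, chr2:32387937-32387966 on the minus strand, and the Saa3 match, chr7:46715757-46715786 on the minus strand, are shown because the siRNA targets a C/EBP factor, with the matching letters in capitals.
Lcn2: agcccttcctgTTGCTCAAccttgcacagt
Saa3: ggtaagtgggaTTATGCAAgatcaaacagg
The Saa3 stretch overlaps no annotated gene. The Lcn2 stretch lies before the RefSeq start, but all 30 of its bases are coding exon of a longer Lcn2 transcript in GENCODE, so it is upstream of one annotated start and inside the gene for another.

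Serpina3c and Serpina3n, which lie at opposite ends of the group of 6 and on opposite strands, have nearly the same promoter window. Of 253 aligned positions 229 were identical (90.5%). Both 250-base windows are printed because these genes also kept close to each other across the 8 groups, as described further on. They are Serpina3c chr12:104153873-104154122 on the minus strand and Serpina3n chr12:104406458-104406707 on the plus strand. Capitals mark the 21 bases of each that differ from, or are absent in, the other.
Serpina3c: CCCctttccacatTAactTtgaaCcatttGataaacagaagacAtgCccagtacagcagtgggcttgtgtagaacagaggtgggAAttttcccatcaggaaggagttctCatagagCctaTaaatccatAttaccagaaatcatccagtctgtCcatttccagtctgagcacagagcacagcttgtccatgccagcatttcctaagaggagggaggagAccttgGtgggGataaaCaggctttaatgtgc
Serpina3n: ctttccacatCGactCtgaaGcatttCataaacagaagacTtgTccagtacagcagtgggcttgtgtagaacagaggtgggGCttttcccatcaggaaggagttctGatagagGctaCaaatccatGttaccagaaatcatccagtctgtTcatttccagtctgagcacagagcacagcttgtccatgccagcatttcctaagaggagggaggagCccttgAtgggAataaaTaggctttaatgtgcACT
Neither window overlaps an annotated gene.

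Depth was even apart from 1 library. Of the 24 libraries, 23 held 8435494 to 15388744 reads assigned to genes, and iWAT aKO siNS replicate 2 held 603585. In that library 93.3% of the listed reads were not aligned, against 16.8% to 27.6% in the others, and it had a TMM scaling factor of 0.840 against 0.985 to 1.04. A single read there equals 1.98 CPM, the unit of count relative to the library total, so Lcn2 (1 count), Orm1 (1 count), Serpina3h (1 count), Serpina3g (2 counts), Serpina3c (3 counts) and Serpina3m (3 counts) are poorly measured in it. Results that use the iWAT aKO siNS group are therefore also given without this library where a call moves, and for some values that move. Its Hp level of 435 CPM was below the other iWAT aKO siNS libraries, at 757 and 899 CPM.

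The siRNA target was lower in all 4 treated groups. Cebpb averaged 167.6 CPM in eWAT Cont siNS and 50.38 CPM in eWAT Cont siC/EBPb, a log2 change of -1.73 ± 0.16 (SE). The log2 changes were -1.79 ± 0.17 in iWAT Cont, -2.47 ± 0.17 in eWAT aKO and -2.69 ± 0.19 in iWAT aKO. Senp2, the targeted gene of the aKO, averaged 54.47 ± 2.351 CPM (SD, n = 3) in the Cont and 47.56 ± 4.822 CPM in the aKO cultures of eWAT with siNS, a log2 difference of -0.20 ± 0.072 (SE; adjusted p = 0.0519 by edgeR's quasi-likelihood test). In iWAT the log2 difference was -0.062 ± 0.082 (adjusted p = 0.688). With siC/EBPb the Senp2 difference was 0.094 ± 0.072 in eWAT (adjusted p = 0.509) and 0.063 ± 0.073 in iWAT (adjusted p = 0.731), both above 0. The eWAT difference with siNS passed without the shallow library (adjusted p = 0.0322), without eWAT aKO siNS replicate 1 (adjusted p = 0.00990), and with DESeq2's size factors, a stricter filter or the replicate block (adjusted p from 0.0369 to 0.0440). Counts over the whole gene include exons that Cre may leave in place and cells that have no Cre, so these values check nothing about the genotype labels.

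**Figure D1:**
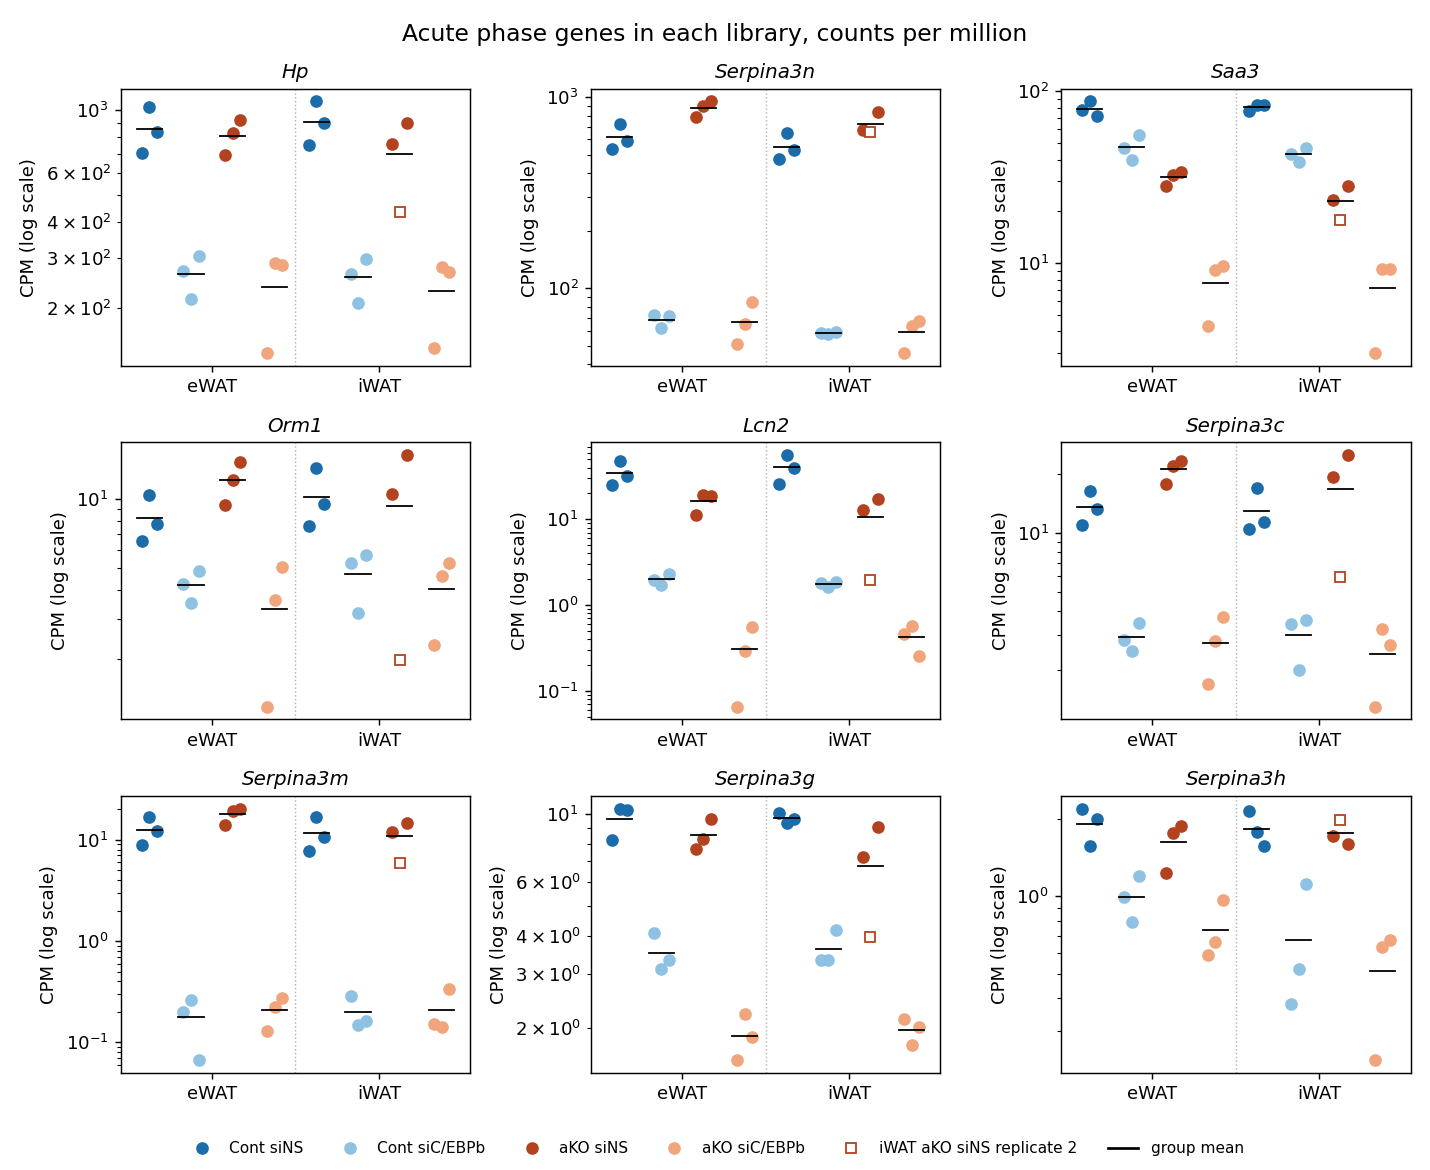
Level of each of the 9 tested acute phase genes in every library, as CPM on a log axis, by depot, genotype and siRNA. Points are libraries, bars are group means (n = 3), and the open square is iWAT aKO siNS replicate 2, whose 603585 gene counts make its low values coarse. In each panel the siC/EBPb libraries sit below the siNS libraries of the same depot and genotype, except for Orm1 in iWAT aKO.

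Per length of exon sequence, Hp and Serpina3n stood far above the rest. Over all 24 libraries the mean level per kilobase of exon was 330.9 CPM for Hp, at the 99.5th percentile of tested genes, and 182.8 CPM for Serpina3n, at the 98.8th percentile. Saa3 followed with 15.34 CPM per kilobase, Orm1 with 9.037, Lcn2 with 5.088, Serpina3c with 4.255, Serpina3m with 3.911 and Serpina3g with 2.706. The Serpina3h pseudogene had 0.8764 CPM per kilobase, at the 19.6th percentile. Serpina3f had 0.1077 CPM per kilobase, from 55 counts in all 24 libraries and at most 7 in any of them. The order of Lcn2, Serpina3m and Serpina3c changed between groups. In eWAT Cont siNS the level per kilobase was 13.27 CPM for Lcn2, 7.309 for Serpina3m and 6.106 for Serpina3c, and in eWAT aKO siNS it was 6.192, 10.38 and 9.496 in the same order.

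The first question the design asks of these genes is what siC/EBPb treatment did to their level. All of the 9 tested genes were lower with siC/EBPb in both depots and both genotypes, from 67.4-fold for Serpina3m to 1.67-fold for Saa3 in eWAT Cont. Same-numbered libraries of the depots deviated together (mean r = 0.336 over 11 pairs). A result found in both depots, here and below, is therefore no independent repeat. The number that fell at an adjusted p under 0.05 was 8 of 9 in eWAT Cont, against 14.9% of all tested genes. It was 9 of 9 in iWAT Cont (14.0% of all genes), 9 of 9 in eWAT aKO (19.1%) and 9 of 9 in iWAT aKO (17.7%). The median log2 change of the 9 genes was -1.70, -1.83, -2.18 and -2.02 in these 4 comparisons, where the median of all tested genes was 0.023, 0.0041, -0.0011 and -0.0062. Groups did not overlap in CPM for 9 of 9 genes in eWAT Cont, where 45.9% of all genes did not overlap. They did not overlap for 9 genes in iWAT Cont (42.8% of all genes), 9 in eWAT aKO (46.3%) and 8 in iWAT aKO (35.1%). Since the genes were chosen with such results known, these counts describe the genes and test nothing.

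Among the serpins, Serpina3m lost nearly all of its reads. It had 131, 244 and 171 counts in the 3 eWAT Cont siNS libraries and 3, 4 and 1 counts in eWAT Cont siC/EBPb. In eWAT aKO it had 182, 284 and 313 counts with siNS and 2, 3 and 4 with siC/EBPb. No treated eWAT library had more than 4 reads, and no siNS library of that depot had fewer than 131. In iWAT Cont the counts were 95, 168 and 88 with siNS and 3, 2 and 2 with siC/EBPb. In iWAT aKO they were 139, 3 and 195 with siNS, the 3 being the shallow library, and 2, 2 and 4 with siC/EBPb. In CPM the groups did not overlap in any of the 4 comparisons. The log2 change was -6.08 ± 0.44 (SE) in eWAT Cont, -5.84 ± 0.49 in iWAT Cont, -6.36 ± 0.41 in eWAT aKO and -5.94 ± 0.47 in iWAT aKO. The largest adjusted p of the 4 was 4.89e-09 (edgeR's quasi-likelihood test).

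Serpina3n, the most abundant serpin of the cluster here, was at 533, 722 and 590 CPM in eWAT Cont siNS and at 72.1, 61.8 and 71.8 CPM in eWAT Cont siC/EBPb. The eWAT aKO values were 786, 898 and 949 CPM with siNS and 51.0, 64.8 and 84.7 CPM with siC/EBPb. The treated libraries of both genotypes lay in one narrow band, far below every siNS library. In iWAT Cont the values were 477, 647 and 526 CPM with siNS and 58.1, 57.3 and 59.0 CPM with siC/EBPb. In iWAT aKO they were 674, 657 and 838 CPM with siNS, where the shallow library (657 CPM) fell in with the others, and 45.8, 63.4 and 67.4 CPM with siC/EBPb. None of these groups overlapped. The log2 change was -3.17 ± 0.17 in eWAT Cont and -3.24 ± 0.18 in iWAT Cont, a drop of 8.97-fold and 9.46-fold. It was -3.72 ± 0.18 in eWAT aKO and -3.63 ± 0.18 in iWAT aKO, or 13.1-fold and 12.4-fold, with adjusted p-values from 1.99e-13 to 4.55e-12 over the 4 comparisons (edgeR's quasi-likelihood test).

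Serpina3c was a lower-level gene with a smaller drop. It was at 10.9, 16.4 and 13.2 CPM in eWAT Cont siNS and at 2.84, 2.51 and 3.46 CPM in eWAT Cont siC/EBPb. The aKO cultures of eWAT gave 17.8, 22.0 and 23.3 CPM with siNS and 1.70, 2.81 and 3.74 CPM with siC/EBPb. The siNS and siC/EBPb libraries were apart in both genotypes. In iWAT Cont the values were 10.4, 17.0 and 11.4 CPM with siNS and 3.42, 2.01 and 3.61 CPM with siC/EBPb. In iWAT aKO they were 19.3, 5.93 and 24.9 CPM with siNS, the 5.93 from 3 counts of the shallow library, and 1.30, 3.24 and 2.69 CPM with siC/EBPb. Even that library was above every treated one. The log2 change was -2.20 ± 0.28 in eWAT Cont, -2.12 ± 0.30 in iWAT Cont, -2.94 ± 0.27 in eWAT aKO and -3.14 ± 0.30 in iWAT aKO, with adjusted p at most 1.70e-05 (edgeR's quasi-likelihood test).

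Serpina3g, a serpin known from haematopoietic cells as Spi2A, an inhibitor that acts inside cells, was at 8.21, 10.4 and 10.3 CPM in eWAT Cont siNS and at 4.10, 3.11 and 3.33 CPM in eWAT Cont siC/EBPb. The eWAT aKO libraries had 7.70, 8.26 and 9.59 CPM with siNS and 1.57, 2.22 and 1.87 CPM with siC/EBPb. All treated libraries were below all siNS libraries, and the treated aKO libraries were also below the treated Cont ones. In iWAT Cont it was at 10.1, 9.31 and 9.62 CPM with siNS and at 3.33, 3.34 and 4.18 CPM with siC/EBPb. In iWAT aKO it was at 7.23, 3.96 and 9.05 CPM with siNS, the 3.96 from 2 counts, and at 2.14, 1.76 and 2.02 CPM with siC/EBPb. Within each genotype the treated libraries were again the lower ones, although the shallow library was below the highest treated Cont library, at 4.18 CPM. The log2 change was -1.45 ± 0.15 and -1.42 ± 0.16 in eWAT and iWAT Cont, and -2.18 ± 0.17 and -2.02 ± 0.19 in eWAT and iWAT aKO, with adjusted p at most 1.14e-07 (edgeR's quasi-likelihood test).

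The Serpina3h pseudogene and Serpina3f rest on few reads. Serpina3h had 13 to 32 counts in the siNS libraries other than the shallow one, which had 1, and 3 to 18 counts in the siC/EBPb libraries. It fell in all 4 comparisons, with log2 changes of -0.94 ± 0.28 in eWAT Cont (adjusted p = 0.0138 by edgeR's quasi-likelihood test), -1.43 ± 0.34 in iWAT Cont, -1.14 ± 0.31 in eWAT aKO and -1.68 ± 0.39 in iWAT aKO. The eWAT Cont call was lost without eWAT Cont siNS replicate 1 (adjusted p = 0.0653) or without eWAT Cont siC/EBPb replicate 2 (adjusted p = 0.0690). Serpina3f, which was not tested, summed over 3 libraries to 14 counts in eWAT Cont siNS and 5 in eWAT Cont siC/EBPb. Its sums were 18 and 1 in eWAT aKO, 3 and 3 in iWAT Cont, and 9 and 2 in iWAT aKO, siNS before siC/EBPb. A difference in Serpina3f was not detectable at this depth in iWAT Cont.

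Lcn2 had the second largest drop after Serpina3m. It was at 25.2, 47.6 and 31.6 CPM in eWAT Cont siNS and at 1.98, 1.72 and 2.33 CPM in eWAT Cont siC/EBPb. The eWAT aKO levels were 11.2, 19.0 and 18.5 CPM with siNS and 0.0655, 0.295 and 0.553 CPM with siC/EBPb, the last 3 from 1, 4 and 8 counts. The 4 eWAT groups did not overlap: Cont siNS was highest, then aKO siNS, then Cont siC/EBPb, then aKO siC/EBPb. In iWAT Cont it was at 25.7, 56.1 and 39.7 CPM with siNS and at 1.81, 1.63 and 1.85 CPM with siC/EBPb. In iWAT aKO it was at 12.9, 1.98 and 17.3 CPM with siNS, the 1.98 being 1 read of the shallow library, and at 0.459, 0.564 and 0.253 CPM with siC/EBPb. The iWAT groups kept the same order without overlap, though the shallow library, at 1.98 CPM, was only just above the treated Cont libraries.

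The log2 change of Lcn2 was -4.11 ± 0.36 in eWAT Cont (17.2-fold, adjusted p = 8.11e-08) and -4.51 ± 0.40 in iWAT Cont (22.8-fold, adjusted p = 8.08e-08). It was -5.72 ± 0.58 in eWAT aKO (52.7-fold, adjusted p = 2.26e-07) and -5.05 ± 0.60 in iWAT aKO (33.1-fold, adjusted p = 2.50e-06; edgeR's quasi-likelihood test). The treated aKO groups held 13 and 17 reads of Lcn2 in all, and the standard errors are wider there.

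Saa3 had the smallest drop of the called genes in Cont cultures and one of middling size in aKO cultures. It was at 78.3, 87.4 and 71.9 CPM in eWAT Cont siNS and at 46.7, 39.8 and 55.8 CPM in eWAT Cont siC/EBPb. For eWAT aKO the levels were 28.2, 32.5 and 34.1 CPM with siNS and 4.32, 9.16 and 9.62 CPM with siC/EBPb. The eWAT groups did not overlap, and here the treated Cont libraries were above the siNS libraries of aKO, the reverse of Lcn2. In iWAT Cont it was at 76.8, 82.8 and 82.9 CPM with siNS and at 43.3, 38.9 and 46.7 CPM with siC/EBPb. In iWAT aKO it was at 23.2, 17.8 and 28.1 CPM with siNS, the 17.8 from 9 counts, and at 2.99, 9.23 and 9.26 CPM with siC/EBPb. The iWAT groups were in the same order and did not overlap. The log2 change was -0.74 ± 0.19 in eWAT Cont (adjusted p = 0.00644) and -0.91 ± 0.20 in iWAT Cont (adjusted p = 0.00196). In aKO it was -2.05 ± 0.25 in eWAT (adjusted p = 2.97e-06) and -1.83 ± 0.29 in iWAT (adjusted p = 7.54e-05; edgeR's quasi-likelihood test).

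Hp was at 702, 1023 and 834 CPM in eWAT Cont siNS and at 270, 214 and 304 CPM in eWAT Cont siC/EBPb. In eWAT aKO it was at 692, 825 and 917 CPM with siNS and at 138, 287 and 282 CPM with siC/EBPb. The 2 genotypes overlapped at each siRNA, and the siRNA groups were apart. In iWAT Cont it was at 752, 1071 and 899 CPM with siNS and at 262, 207 and 297 CPM with siC/EBPb. In iWAT aKO it was at 757, 435 and 899 CPM with siNS and at 144, 279 and 266 CPM with siC/EBPb. The lowest siNS value, from the shallow library, was still above every treated one. The log2 change of Hp was -1.70 ± 0.30 in eWAT Cont, -1.83 ± 0.30 in iWAT Cont, -1.78 ± 0.30 in eWAT aKO and -1.65 ± 0.31 in iWAT aKO, with adjusted p at most 0.000386 (edgeR's quasi-likelihood test). Without the shallow library the iWAT aKO value was -1.86.

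Orm1 gave the least settled of the drops. It was at 6.57, 10.4 and 7.76 CPM in eWAT Cont siNS and at 4.23, 3.51 and 4.86 CPM in eWAT Cont siC/EBPb. In eWAT aKO it was at 9.39, 12.1 and 14.5 CPM with siNS and at 1.24, 3.62 and 5.05 CPM with siC/EBPb. These eWAT groups did not overlap by siRNA. In iWAT Cont it was at 7.57, 13.6 and 9.50 CPM with siNS and at 5.23, 3.19 and 5.70 CPM with siC/EBPb. In iWAT aKO it was at 10.5, 1.98 and 15.5 CPM with siNS, the 1.98 being 1 read, and at 2.30, 4.58 and 5.22 CPM with siC/EBPb. That 1 read is the one overlap among the 9 genes.

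In eWAT Cont the log2 difference of Orm1 was -0.97 ± 0.36 and did not pass (adjusted p = 0.0512 by edgeR's quasi-likelihood test), the only missing call of the 9 genes in these comparisons. It passed with DESeq2's size factors (adjusted p = 0.0485), DESeq2's Wald test (adjusted p = 0.0494), a stricter filter (adjusted p = 0.0409), no filter (adjusted p = 1.86e-08), the replicate number as a block (adjusted p = 0.0141) and these 2 groups alone (adjusted p = 0.000152), and without eWAT Cont siNS replicate 1 (adjusted p = 0.0483). It passed in the other 3 comparisons, with log2 changes of -1.12 ± 0.37 in iWAT Cont (adjusted p = 0.0340), -1.88 ± 0.36 in eWAT aKO (adjusted p = 0.000334) and -1.65 ± 0.38 in iWAT aKO (adjusted p = 0.00242). The iWAT Cont call was lost without iWAT Cont siNS replicate 2 (adjusted p = 0.176) or 3 (adjusted p = 0.0600), and without iWAT Cont siC/EBPb replicate 1 (adjusted p = 0.0587) or 2 (adjusted p = 0.148). The iWAT aKO call was lost without iWAT aKO siNS replicate 3 (adjusted p = 0.0584).

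**Figure D2:**
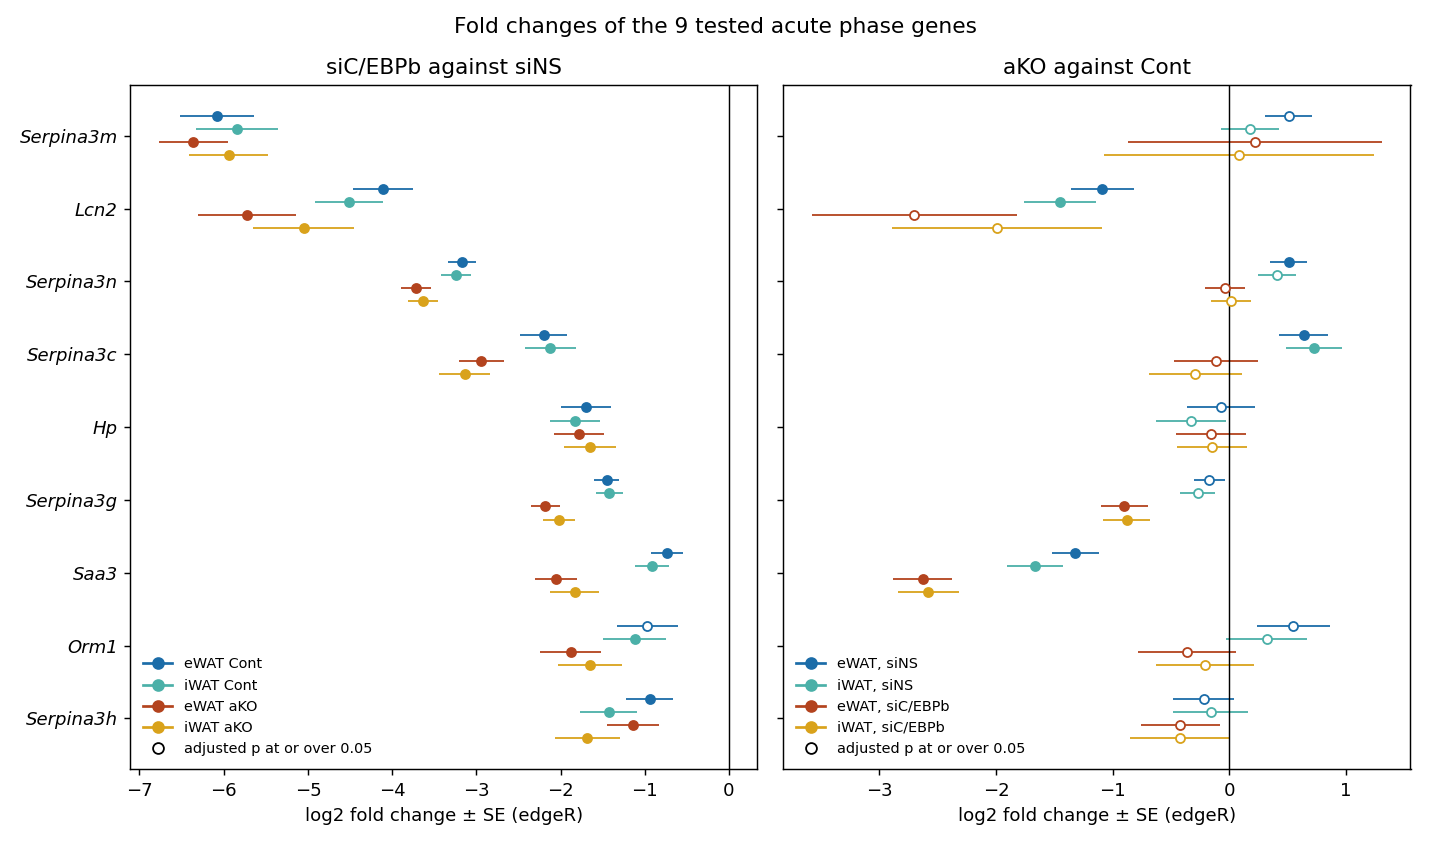
Log2 fold change of the 9 tested genes with its standard error (n = 3 libraries a group), for siC/EBPb against siNS on the left and aKO against Cont on the right, in both depots. Open points did not pass an adjusted p of 0.05. On the left every point is below 0, from -0.74 for Saa3 in eWAT Cont to -6.36 for Serpina3m in eWAT aKO, and on the right Saa3 and Lcn2 lie below 0 while Serpina3c lies above 0 with siNS.

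Markers of other cells moved with the siRNA beside these genes. Of 15 leukocyte markers, led by macrophage genes such as Lyz2 and Csf1r, 13 were tested and all 13 fell with siC/EBPb in each of the 4 comparisons. In eWAT their summed level was 1883 to 2607 CPM against 354 to 410 CPM in Cont, siNS before siC/EBPb, and 1566 to 1644 CPM against 95.9 to 201 CPM in eWAT aKO. In iWAT it was 1809 to 2512 CPM against 345 to 375 CPM in Cont and 892 to 1606 CPM against 82.8 to 179 CPM in aKO. Cd3e, a T cell marker, was at 0 in the libraries. In bulk RNA fewer leukocytes and less of these transcripts per leukocyte cannot be told apart, and macrophages also express Lcn2 and Saa3. The part of leukocyte RNA in the drops was not tested. The list includes Cd163, which is also listed below among receptors. Mesothelial markers went the other way in Cont cultures: 4 of 7 tested rose with siC/EBPb in both depots, with a median log2 change of 2.32 in eWAT and 2.05 in iWAT, while 1 fell in eWAT and 2 in iWAT. The 4 were Upk3b, Lrrn4, Upk1b and Gpm6a, each at 2.563 CPM or less as a group mean. Their number was 0 in both depots with a stricter filter, 2 with DESeq2's Wald test, 2 without eWAT Cont siC/EBPb replicate 2, and 1 without iWAT Cont siNS replicate 2 or 3 or iWAT Cont siC/EBPb replicate 2. In aKO cultures 0 of 7 passed in either depot by edgeR's quasi-likelihood test. Of 12 fibroblast and progenitor markers 4 fell in eWAT Cont, 5 in iWAT Cont (3 without siC/EBPb replicate 2 of that group), 7 in eWAT aKO and 8 in iWAT aKO, and 2, 2, 2 and 1 rose.

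The 12 adipocyte markers, all tested and among them Adipoq and Plin1, moved less. Their sum was 1043 to 1500 CPM in eWAT Cont siNS and 899 to 1221 CPM in eWAT Cont siC/EBPb, and 3 of 12 fell and 1 rose. In iWAT Cont 3 of 12 fell. In aKO 9 of 12 fell in eWAT, where the sum went from 1689 to 2314 CPM down to 594 to 1169 CPM, and 8 of 12 fell in iWAT. The iWAT aKO count was 3 when siNS replicate 3 of that group was left out and 5 when siC/EBPb replicate 1 was. With no filter 8 of 12 fell in both Cont comparisons. Adipocyte transcripts were present in every group, as labelled, beside those of other cells. In eWAT Cont siNS the fibroblast and progenitor markers summed to 36038 to 37466 CPM and the leukocyte markers to 1883 to 2607 CPM. The lists hold different genes, so their sums do not give shares of cells. Markers of hepatocytes, the main source of these proteins in the body, summed to between 1.48 and 10.7 CPM, and Tat was at 0 in every group. Neutrophil markers, which would come with neutrophil Lcn2, summed to at most 5.93 CPM and epithelial markers to at most 0.547 CPM. The 5.93 CPM came from the shallow library, and in groups other than iWAT aKO siNS the neutrophil sum was at most 3.07 CPM. With siC/EBPb its mean went from 2.02 to 0.884 CPM in eWAT Cont and from 1.85 to 0.160 CPM in eWAT aKO. The 1 neutrophil marker that was tested fell in each siC/EBPb comparison. The part of neutrophils in the Lcn2 drop was not tested.

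The second question is how these genes differed between the cultures labelled aKO and Cont. With siNS the 9 genes split. Lcn2 and Saa3 fell in aKO in both depots, Serpina3c rose in both, Serpina3n rose in eWAT, and the other 5 genes passed in neither depot. In eWAT 2 of 9 rose, against 9.50% of all genes, and 2 of 9 fell, against 10.9%. In iWAT 1 of 9 rose (7.32% of all genes) and 2 of 9 fell (7.85%). These counts are small, and the 9 genes have both signs, with a median log2 difference of -0.072 in eWAT and -0.16 in iWAT.

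With siNS in eWAT, Lcn2 averaged 34.81 ± 11.49 CPM (SD, n = 3) in Cont and 16.24 ± 4.343 CPM in aKO, a log2 change of -1.09 ± 0.27 (SE; adjusted p = 0.00605). In iWAT it averaged 40.49 ± 15.25 and 10.72 ± 7.875 CPM, a log2 change of -1.45 ± 0.31 (adjusted p = 0.00312). The highest aKO library, at 19.0 CPM in eWAT, was below the lowest Cont library, at 25.2 CPM, and the groups were apart in iWAT as well. Without the shallow library the iWAT value was -1.41 (adjusted p = 0.00552). With the 2 eWAT groups fitted alone the adjusted p was 0.0783 (edgeR's quasi-likelihood test).

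Saa3 had a log2 change of -1.32 ± 0.20 in eWAT aKO (adjusted p = 8.21e-05) and -1.67 ± 0.24 in iWAT aKO (adjusted p = 6.42e-05; edgeR's quasi-likelihood test). The Cont libraries, at 71.9 CPM and above, and the aKO libraries, at 34.1 CPM and below, were apart in both depots. Without the shallow library the iWAT value was -1.66 (adjusted p = 0.000197). The other serum amyloid A genes of the list rest on few reads. Saa2, which encodes a serum amyloid A of liver, summed to 104 counts in Cont and 30 in aKO with siNS in eWAT, and to 84 and 11 in iWAT. It fell, with log2 changes of -1.77 ± 0.38 (adjusted p = 0.00117) and -2.66 ± 0.51 (adjusted p = 0.000489). Saa1 summed to 58 and 7 in eWAT and to 50 and 7 in iWAT, with log2 changes of -2.97 ± 0.57 (adjusted p = 0.000325) and -2.52 ± 0.61 (adjusted p = 0.00424), and its iWAT call was lost without aKO siNS replicate 3 (adjusted p = 0.0643). Saa4 was at -0.55 ± 0.43 in eWAT (adjusted p = 0.423) and fell in iWAT by 1.65 ± 0.57 (adjusted p = 0.0482; edgeR's quasi-likelihood test). That call was lost with no filter (0.0513), the replicate block (0.0688) or DESeq2's Wald test (0.114), without replicate 2 (0.150) or 3 (0.0892) of Cont and without replicate 3 of aKO (0.357).

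Serpina3c and Serpina3n went the other way. Serpina3c rose by 0.64 ± 0.21 log2 units in eWAT aKO (adjusted p = 0.0356), where the aKO libraries, from 17.8 CPM, were above the Cont libraries, up to 16.4 CPM. In iWAT it rose by 0.73 ± 0.24 (adjusted p = 0.0486), although the shallow aKO library, at 5.93 CPM, was below all Cont libraries. Without that library the iWAT value was 0.77 (adjusted p = 0.0362). Serpina3n rose by 0.51 ± 0.16 in eWAT (adjusted p = 0.0222), with aKO libraries from 786 CPM and Cont libraries up to 722 CPM. In iWAT its log2 difference was 0.41 ± 0.16 (adjusted p = 0.0947; 0.45 and adjusted p = 0.117 without the shallow library; edgeR's quasi-likelihood test), and the difference between depots is tested below.

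These rises were not stable. In eWAT the Serpina3c and Serpina3n calls were lost without eWAT Cont siNS replicate 1 (adjusted p = 0.160 and 0.112), without Cont siNS replicate 3 (0.0901 and 0.0739), without aKO siNS replicate 2 (0.0978 and 0.0590) and without aKO siNS replicate 3 (0.144 and 0.0964). DESeq2's Wald test gave Serpina3c an adjusted p of 0.144 in eWAT and 0.240 in iWAT. The iWAT Serpina3c call was also lost with DESeq2's size factors (adjusted p = 0.0521), with the 2 groups alone (0.148), without replicate 1 (0.204) or 3 (0.132) of Cont, and without replicate 1 (0.0741) or 3 (0.372) of aKO. Serpina3n in iWAT passed with the replicate number as a block (adjusted p = 0.0300), with no filter (0.00176) and without iWAT Cont siNS replicate 2 (0.0452).

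The other 5 genes did not pass with siNS. Serpina3m was at 0.51 ± 0.20 log2 units in eWAT (adjusted p = 0.0814) and 0.18 ± 0.25 in iWAT. In eWAT it passed with the replicate block (adjusted p = 0.00478), with no filter (0.000869), without Cont siNS replicate 2 (0.0137) and without aKO siNS replicate 1 (0.0329). Orm1 was at 0.55 ± 0.31 (adjusted p = 0.241) and 0.32 ± 0.35 (adjusted p = 0.615), and in eWAT it passed with no filter (0.00108) and with the 2 groups alone (0.0438). Hp was at -0.072 ± 0.29 and -0.33 ± 0.30, and in iWAT it passed with no filter (0.0386). Without the shallow library the iWAT value of Hp was -0.14 (adjusted p = 0.822). Serpina3g was at -0.17 ± 0.13 and -0.27 ± 0.15, and Serpina3h at -0.22 ± 0.26 and -0.16 ± 0.32, eWAT before iWAT. For these 5 genes the standard errors leave room for differences of moderate size, and of either sign except for Serpina3m in eWAT.

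Marker sums moved with genotype as well. With siNS 7 of 13 tested leukocyte markers fell in eWAT aKO and 5 of 13 in iWAT aKO, and none rose. Adipocyte markers went up, with 7 of 12 that rose in eWAT aKO and 2 of 12 in iWAT aKO. The mean leukocyte sum in aKO siNS was 69.7% of Cont siNS in eWAT and 60.0% in iWAT, and the mean adipocyte sum 163% and 138%. Beside these, Lcn2 stood at 46.7% and 26.5%, Saa3 at 39.9% and 28.5%, Serpina3c at 156% and 129%, and Serpina3n at 143% and 131%. Without the shallow library the iWAT shares were 37.3% for Lcn2, 31.7% for Saa3, 171% for Serpina3c, 137% for Serpina3n, 69.8% for the leukocyte sum and 160% for the adipocyte sum. The adipocyte count in eWAT was 3 without Cont siNS replicate 1 or 3 or aKO siNS replicate 3, 4 without aKO siNS replicate 2 and 11 with no filter. In iWAT it was 0 without Cont siNS replicate 1 or aKO siNS replicate 3, 4 without Cont siNS replicate 2 or the shallow library and 10 with no filter. The leukocyte count in iWAT was 3 without aKO siNS replicate 3, and with no filter the counts were 12 in eWAT and 13 in iWAT. The part of either cell type in these differences was not tested.

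Mesothelial and endothelial markers were lower in aKO too. The mesothelial sum was 26.0 to 26.4 CPM in eWAT Cont siNS and 6.09 to 8.29 CPM in eWAT aKO siNS, and averaged 29.0 CPM against 7.08 CPM in iWAT. This is 27.2% of Cont in eWAT and 24.4% in iWAT (26.4% without the shallow library). Of 7 tested genes 3 fell in each depot, Wt1, Krt19 and Krt7, named here after their values were seen. Wt1, a transcription factor of the mesothelium that progenitors of visceral fat also express, carried much of the sum. It averaged 15.10 CPM in eWAT Cont siNS and 1.601 CPM in eWAT aKO siNS. These markers did not set the depots apart. Between iWAT and eWAT 0 of 7 tested mesothelial markers passed in Cont siNS, against 1.20% of all genes. Their median log2 difference, iWAT minus eWAT, was 0.33. Krt18 was at 0 in aKO siNS of both depots, and Msln was at 0.1097 CPM or less as a mean in the siNS groups. Of 9 tested endothelial markers 5 fell in eWAT and 4 in iWAT, and 1 rose in each. Of 12 fibroblast and progenitor markers 5 rose in eWAT and 3 in iWAT, and 1 fell in each. The part of these cells was not tested.

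**Figure D3:**
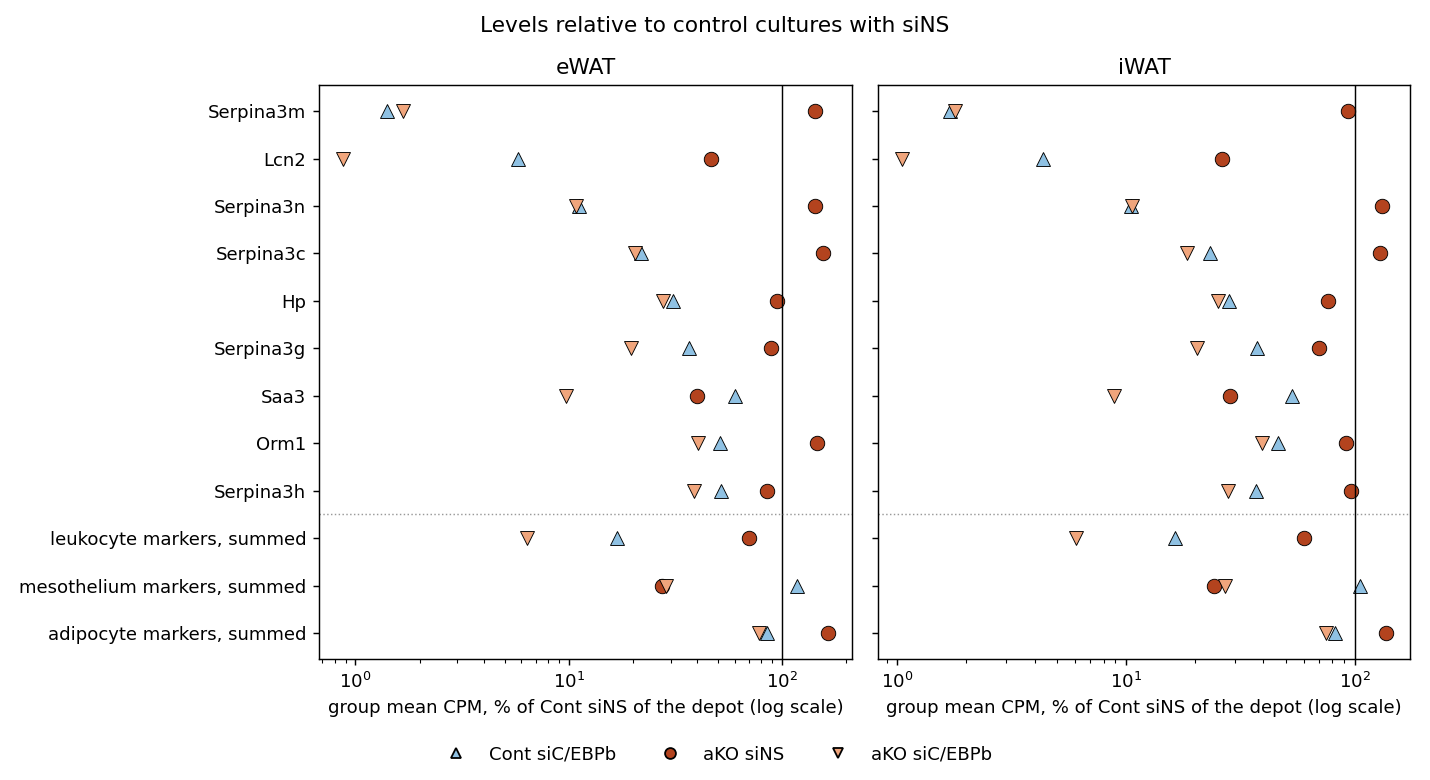
Mean CPM of each acute phase gene, and of the summed leukocyte, mesothelial and adipocyte markers, as percent of the Cont siNS mean of the same depot (n = 3 libraries a group). With siC/EBPb in eWAT Cont the leukocyte sum is at 16.8%, Serpina3n at 11.1%, Lcn2 at 5.78%, Serpina3m at 1.41% and Saa3 at 59.9%, while the adipocyte sum is at 85.2% and the mesothelial sum at 118%. In aKO the mesothelial sum is at 24.4% to 28.6%.

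With siC/EBPb in both genotypes, Saa3 and Serpina3g were lower in aKO than in Cont. In each depot 2 of 9 genes fell, against 6.87% of all genes in eWAT and 6.51% in iWAT. The log2 change of Saa3 was -2.63 ± 0.25 in eWAT (adjusted p = 6.34e-07) and -2.58 ± 0.26 in iWAT (adjusted p = 1.86e-06). That of Serpina3g was -0.90 ± 0.20 in eWAT (adjusted p = 0.00219) and -0.88 ± 0.20 in iWAT (adjusted p = 0.00455; edgeR's quasi-likelihood test). The groups did not overlap for either gene in either depot.

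Lcn2 did not overlap between these groups, yet it did not pass. Its log2 difference was -2.70 ± 0.88 in eWAT (adjusted p = 0.0596) and -1.99 ± 0.90 in iWAT (adjusted p = 0.210; edgeR's quasi-likelihood test). It passed in both depots with no filter (adjusted p = 9.82e-12 and 5.37e-06), DESeq2's Wald test (6.60e-05 and 0.00444), the replicate block (0.00132 and 0.0193) and the groups alone (0.000742 and 0.000737), and in eWAT with a stricter filter (0.0487). The aKO groups hold 13 and 17 reads of it in all. Cebpb itself was lower in treated aKO than in treated Cont cultures, with log2 changes of -0.88 ± 0.17 in eWAT (adjusted p = 0.00134) and -0.97 ± 0.19 in iWAT (adjusted p = 0.00155). Of 13 tested leukocyte markers 13 fell in eWAT and 12 in iWAT in the same comparison. Of 7 tested mesothelial markers 6 fell in eWAT (median log2 difference -3.21) and 5 in iWAT (median -2.39). The eWAT number was 3 with DESeq2's Wald test, without Cont siC/EBPb replicate 2 and without aKO siC/EBPb replicate 1 or 3, the iWAT number 3 without Cont siC/EBPb replicate 2 and 9 with no filter, and both were 2 with a stricter filter. Endothelial markers fell for 4 of 9 in eWAT and 6 of 9 in iWAT. The part of Cebpb or of any of these cells in the Saa3 and Serpina3g differences was not tested.

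Whether siC/EBPb acted differently in the 2 genotypes was tested as an interaction, the siRNA effect in aKO minus that in Cont. Saa3 in eWAT was the 1 call, -1.31 ± 0.32 log2 units (adjusted p = 0.0200 by edgeR's quasi-likelihood test), 1 of 9 genes against 6.34% of all genes. At an unadjusted p under 0.05 it was 3 of 9 genes, against 20.6% of all genes. The call was lost without eWAT Cont siC/EBPb replicate 3 (adjusted p = 0.0576), eWAT aKO siNS replicate 3 (0.0558) or eWAT aKO siC/EBPb replicate 1 (0.0760). In iWAT 0 of 9 genes passed, against 3.51% of all genes, although 3 of 9 had an unadjusted p under 0.05 (16.6% of all genes), and DESeq2's Wald test called 0 as well. There Saa3 was at -0.91 ± 0.36 (adjusted p = 0.188; 3.89e-06 with no filter). Serpina3g was at -0.73 ± 0.24 in eWAT (adjusted p = 0.0624) and -0.60 ± 0.26 in iWAT (adjusted p = 0.218). It passed in eWAT without eWAT aKO siC/EBPb replicate 2 (adjusted p = 0.0414) and without the shallow library (0.0370). Cebpb had interaction values of -0.74 in eWAT (adjusted p = 0.0562) and -0.90 in iWAT (adjusted p = 0.0522). The sign is shared by most of these genes, since 9 of 9 were below 0 in eWAT and 8 of 9 in iWAT. All 13 tested leukocyte markers were below 0 in both depots. The median of the 9 genes was -0.73 in eWAT and -0.53 in iWAT, where that of all tested genes was -0.018 and -0.017. Some values lie within their standard error of 0, such as Serpina3m at -0.29 ± 1.21 and Hp at -0.085 ± 0.42 in eWAT. The Cebpb interaction passed in both depots with no filter, a stricter filter or DESeq2's Wald test (adjusted p from 1.79e-07 to 0.0467), and in eWAT without eWAT Cont siC/EBPb replicate 2 (adjusted p = 0.0350) or eWAT aKO siC/EBPb replicate 2 (0.0241). In iWAT it passed without iWAT Cont siNS replicate 1 (0.0332) or iWAT aKO siC/EBPb replicate 3 (0.0148).

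No difference between depots passed in these genes. In Cont siNS cultures 0 of 9 genes passed between iWAT and eWAT, against 1.20% of all genes, 0 had an unadjusted p under 0.05 (15.1% of all genes) and 0 passed DESeq2's Wald test. The log2 differences ran from -0.16 ± 0.16 for Serpina3n to 0.30 ± 0.33 for Orm1. All 9 overlapped between depots, but the share of all genes that overlapped is not given here, so this count has no scale. Same-numbered libraries of the depots form pairs, and within these Serpina3n was lower in iWAT in 3 of 3 and Lcn2, Hp and Orm1 were higher in 3 of 3. These are 4 of 9 genes with 1 sign in all pairs, against 46.6% of all tested genes. With the pair as a block 0 of 9 passed, with Serpina3n at -0.16 ± 0.083 (adjusted p = 0.348), Orm1 at 0.30 ± 0.14 (adjusted p = 0.299) and Lcn2 at 0.20 ± 0.11 (adjusted p = 0.380; edgeR's quasi-likelihood test). The genotype effect with siNS was also compared between depots, and 0 of 9 genes passed, against 0.00% of all genes, since 0 of 14785 genes passed (edgeR's quasi-likelihood test). In that comparison 415 genes had an unadjusted p under 0.05, none of them among the 9, DESeq2's Wald test called 0 genes, and 18 passed with no filter. The different calls of Serpina3n in eWAT and iWAT were thus not shown to be a difference between depots.

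Across the 8 group means of log2 CPM, the 9 genes fell into patterns that their fold changes already outline. Serpina3m and Serpina3n had a Pearson r of 0.996, Serpina3c and Serpina3n 0.994 and Serpina3c and Serpina3m 0.991. These serpins share some 50-base stretches with each other, and the part of shared reads in these values was not tested. Lcn2 was closest to Serpina3g, at 0.994. Saa3 stood apart, with r from 0.497 with Serpina3n to 0.821 with Lcn2. These are descriptions over 8 points that share library preparation, depth and the one large siRNA difference, so most pairs of responding genes have a high r.

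**Figure D4:**
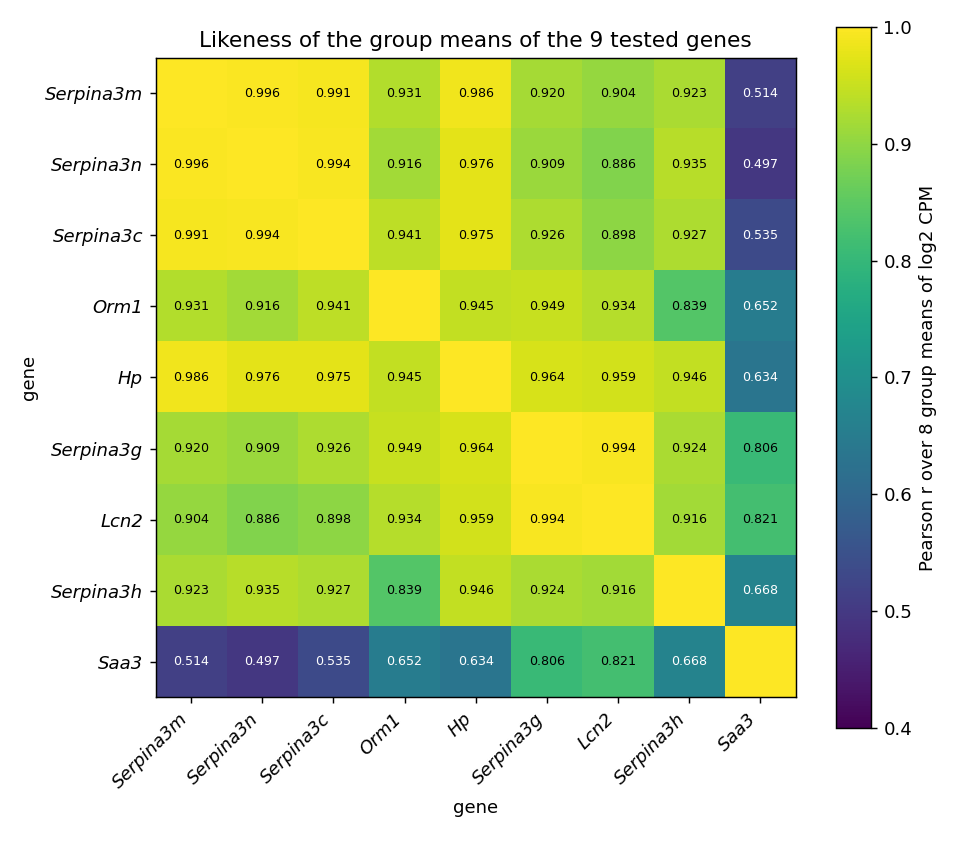
Pearson r between each pair of the 9 tested genes over the 8 group means of log2 CPM (n = 8). Saa3 has the lowest values, from 0.497 to 0.821, and Serpina3c, Serpina3m and Serpina3n lie at 0.991 to 0.996 with each other.

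The genes most like each pattern were taken from 12048 genes by Pearson r over the 8 group means. For Lcn2 they were Ccl6, a chemokine of myeloid cells (r = 0.9996), Clec5a, a myeloid lectin receptor (0.9969), and Isyna1, an enzyme of inositol synthesis (0.9968). Ccl6 averaged 46.87, 3.206, 21.31 and 0.5844 CPM in the Cont siNS, Cont siC/EBPb, aKO siNS and aKO siC/EBPb groups of eWAT, where Lcn2 averaged 34.81, 2.012, 16.24 and 0.3048 CPM. For Saa3 they were Igfbp3, which binds insulin-like growth factors (0.9968), the signalling protein gene Wnt4 (0.9918) and the carbonic anhydrase gene Car6 (0.9852). Igfbp3 averaged 503.6, 326.6, 186.8 and 54.72 CPM in the same eWAT groups. For Serpina3n they were Fos, a subunit of AP-1 (0.9984), Prg4, which encodes lubricin (0.9976), and Tnfsf11, which encodes RANKL (0.9959). Prg4 averaged 138.7, 19.21, 186.6 and 16.45 CPM. Without the shallow library Clec5a (0.9947) and Isyna1 (0.9941) dropped to ranks 22 and 29 for Lcn2, Car6 (0.9778) to rank 18 for Saa3 and Tnfsf11 (0.996) to rank 6 for Serpina3n.

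Other acute phase genes went down with siC/EBPb as well. Of 40 listed genes 24 were tested, and 16 fell in eWAT Cont, 17 in iWAT Cont, 19 in eWAT aKO and 14 in iWAT aKO, while 0, 0, 1 and 1 rose. Their median log2 changes were -1.09, -1.19, -1.69 and -1.55. Ptx3, a long pentraxin, had log2 changes of -1.48 ± 0.11 in eWAT Cont, -1.51 in iWAT Cont, -1.88 in eWAT aKO and -1.89 in iWAT aKO (-2.03 without the shallow library). A2m, a broad protease inhibitor, had values of -2.25 ± 0.15, -2.16, -2.41 and -2.22 in the same order. Lbp, which presents lipopolysaccharide to CD14, had values of -1.42 ± 0.17 and -1.47 in Cont and -3.06 ± 0.18 and -3.01 in aKO, eWAT before iWAT. Mt1, a metal-binding protein, had values of -1.05, -1.38, -1.32 and -1.22. All of these passed.

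With siNS 2 of these 24 genes rose and 9 fell in eWAT aKO, and 2 rose and 12 fell in iWAT aKO. A2m was among those that fell, with log2 changes of -1.10 ± 0.13 in eWAT and -0.87 ± 0.16 in iWAT. With siC/EBPb 1 rose and 11 fell in each depot, and the iWAT count was 7 without iWAT Cont siC/EBPb replicate 1 or iWAT aKO siC/EBPb replicate 1. A2m was at -1.26 and -0.93 and Lbp at -1.23 ± 0.19 and -1.19 ± 0.20, eWAT before iWAT. The A2m call in iWAT with siC/EBPb was lost without iWAT Cont siC/EBPb replicate 3 (adjusted p = 0.0513) or iWAT aKO siC/EBPb replicate 1 (adjusted p = 0.0584; edgeR's quasi-likelihood test).

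Of 15 other genes of the serpin cluster, 12 had a count and 1 was tested. This was Serpina3i, which lies between Serpina3h and Serpina3m. It averaged 5.277 ± 1.015 CPM (SD, n = 3) in eWAT Cont siNS and 0.9728 ± 0.2787 CPM in eWAT Cont siC/EBPb. It fell with siC/EBPb, with log2 changes of -2.43 ± 0.23 in eWAT Cont, -2.34 ± 0.25 in iWAT Cont, -2.82 ± 0.30 in eWAT aKO and -2.89 ± 0.34 in iWAT aKO. With siNS it fell in aKO, with -0.81 ± 0.19 in eWAT (adjusted p = 0.00204) and -0.67 ± 0.22 in iWAT (adjusted p = 0.0427), which is the direction of Lcn2 and Saa3 and not of Serpina3c and Serpina3n. The iWAT call was lost with no filter (adjusted p = 0.0643), with DESeq2's Wald test (0.103), with the 2 groups alone (0.0964), without replicate 2 (0.141) or 3 (0.0673) of Cont and without replicate 1 (0.202) or 3 (0.108) of aKO.

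Of 14 receptors and binding partners of these proteins, 10 were tested, and 6, 6, 6 and 7 fell with siC/EBPb in eWAT Cont, iWAT Cont, eWAT aKO and iWAT aKO, while 0, 1, 1 and 1 rose. Cd163, the macrophage receptor that takes up haptoglobin bound to haemoglobin, averaged 9.619 CPM in eWAT Cont siNS and 0.2655 CPM in eWAT Cont siC/EBPb. Its log2 changes were -5.13 ± 0.29 there and -4.97, -6.69 and -5.05 in iWAT Cont, eWAT aKO and iWAT aKO. With siNS it fell in aKO, to a mean of 3.366 CPM in eWAT, and with a log2 change of -1.26 ± 0.22 in iWAT. Tlr2, a receptor for bacterial lipoproteins and for serum amyloid A, fell in the 4 comparisons, with log2 changes of -1.91, -1.90, -1.66 and -1.77. Scarb1, a receptor for high density lipoprotein, fell with -0.74, -0.74, -0.84 and -0.92.

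Of 25 regulators of acute phase genes, Cebpb included, 22 were tested. With siC/EBPb 15, 13, 12 and 12 fell and 2 rose in each comparison, in the same order. Socs3, the feedback inhibitor that STAT3 induces, fell, with log2 changes of -1.20 ± 0.073 in eWAT Cont and -1.20, -1.13 and -1.23 in the others. Il6st, the shared receptor subunit of the IL-6 family, fell with -0.63, -0.63, -0.87 and -0.98. Ddit3, a C/EBP family member that forms inactive dimers with the others at C/EBP sites, rose by 0.69, 0.52, 0.18 and 0.23, and its aKO calls were lost under many of the alternative settings. With siNS Socs3 fell in aKO, with -0.33 in eWAT and -0.27 in iWAT, and the iWAT call was lost with no filter (adjusted p = 0.0729), with the 2 groups alone (0.271), without replicate 3 of Cont (0.0749) and without replicate 1 of aKO (0.0970; edgeR's quasi-likelihood test).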

How the data were processed

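Poly(A) RNA was sequenced as 24 directional libraries, per the labels' protocols. The submitters' processing notes name CASAVA, cutadapt 2.7, TopHat2 2.1.1, HTSeq, edgeR and GRCm38. The strand setting and annotation release of the counting are not given in the sources used here. The deposited matrix holds whole-number counts for 53465 genes and 5 lines of unassigned reads, which were left out (27.5% to 39.5% of listed reads in 23 libraries, 95.9% in iWAT aKO siNS replicate 2). The deposited values per sample (score) are these counts divided by a constant (largest deviation 7.25e-05) and were not used. GENCODE M21 named 53274 genes and left 191 unnamed. No 2 libraries were identical.

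Counts were fitted with edgeR 4.0.16 (R 4.3.3; TMM scaling, filterByExpr with a minimum count of 10, 8 group means, robust quasi-likelihood test), with Benjamini-Hochberg adjustment over 14785 genes and a threshold of 0.05. Only genes past it are said to have risen or fallen. Each SE of a log2 change is that change, without its sign, divided by the square root of the test's F statistic. It was worked back from the test and is approximate, above all for genes with few reads. Alternatives were DESeq2 1.42.0 size factors and Wald test, no filter, a stricter filter, only the libraries of a contrast, a replicate block, and leaving out each library. The pair block within depot contrasts and the fits without the shallow library were chosen after seeing the data. Members and gene lists were chosen with earlier results of these data known. Genes named from the other acute phase, serpin, receptor and regulator lists are among the 4 with the smallest p of their list. Exceptions are Saa1, Saa2 and Saa4, named as other serum amyloid A genes. Lrp2 was also among those 4 in the receptor list and is not described above. Cell markers were named outside this rule.

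Replicate numbers were checked as pairs over the 8159 genes that averaged 200 counts or more. Same-numbered libraries of the 2 depots deviated together in 10 of 11 pairs (r from 0.0796 to 0.748; 3 of 3 pairs in Cont siNS, 0.270 to 0.425). Those of the 2 genotypes (mean r = -0.0647) and siRNAs (mean r = -0.0317) did not.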

Additional observations from a re-analysis of the deposited data

Results flagged for a closer look

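The effect of siC/EBPb on Saa3 differed between the genotypes in eWAT, with an interaction of -1.31 ± 0.32 log2 units (adjusted p = 0.0200 by edgeR's quasi-likelihood test): Saa3 fell by 0.74 ± 0.19 in Cont and by 2.05 ± 0.25 in aKO. It was picked out because the difference between the 2 effects itself passed its test, 1 of 9 genes against 6.34% of all genes. The call was lost without eWAT Cont siC/EBPb replicate 3 (adjusted p = 0.0576), eWAT aKO siNS replicate 3 (0.0558) or eWAT aKO siC/EBPb replicate 1 (0.0760). In iWAT the Saa3 interaction was -0.91 ± 0.36 and did not pass (adjusted p = 0.188). That of Cebpb itself was -0.74 in eWAT (adjusted p = 0.0562), and its part was not tested. In each genotype all 3 treated libraries were below all 3 siNS libraries, which bears on the 2 falls and not on the difference between them.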

How the results depend on the processing

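Only fold changes reported in the text were counted here, and not every contrast of each gene. Those of the 9 tested genes kept direction and side of the threshold in 384 of 412 values under other settings. In the rest, 23 passed in addition and 5 no longer passed. With single libraries left out 444 of 480 kept both. The cause of the changes was not tested. Signs turned in 9 of the reported values, Cebpb included, none of which passed. With siNS in eWAT the aKO effect on Hp ran from -0.19 to 0.081, positive without Cont replicate 2 (0.081) or aKO replicate 1 (0.034). In iWAT that on Serpina3m ran from -0.079 (no Cont replicate 1) to 0.53 and was -0.02 without aKO replicate 3, that on Orm1 ran from -0.045 (no aKO replicate 3) to 0.58, and that on Cebpb from -0.16 to 0.044 (no Cont replicate 1). Between depots Lcn2 ran from -0.11 (no iWAT replicate 2) to 0.51, and Hp from -0.043 (no iWAT replicate 2; -0.028 without eWAT replicate 1) to 0.24.

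Genes called of 9 moved from 3 to 5 in the iWAT genotype comparison with siNS, 1 to 5 in the eWAT interaction and 0 to 2 in the iWAT interaction with no filter. Leaving out single libraries gave 2 to 5 of 9 (eWAT genotype, siNS; 4 as reported), 2 to 4 (iWAT; 3), 7 to 8 (siC/EBPb in eWAT Cont; 8), 8 to 9 (iWAT Cont and iWAT aKO; 9) and 0 to 2 (eWAT interaction; 1), and the other comparisons kept their counts. With the replicate number as a block 5 and 4 genes passed in the eWAT and iWAT genotype comparisons with siNS, 3 and 3 with siC/EBPb, 9 in each siC/EBPb comparison and 1 and 0 in the interactions. Numbers paired the depots only, and there the block within genotype and siRNA left 0 of 9 called. With no filter the calls over all genes also rose in the iWAT interaction, from 519 to 921. For most other counts here the share of all genes called under the same setting is not given, so they have no scale.

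Over all genes, calls moved past 1.5 times with no filter in the iWAT interaction (519 to 921), between depots (178 to 542) and in depot by genotype (0 to 18). With only the libraries of a contrast they moved in the iWAT genotype comparison with siNS (2243 to 718), siC/EBPb in iWAT aKO (4624 to 2231), both interactions (938 to 1447 and 519 to 303) and between depots (178 to 710). Without the shallow library they moved to 1677, 939 and 1123 in the 2 interactions and between depots. Leaving out other libraries gave as few as 434, 291 and 23 in these, 1436 in the iWAT genotype comparison with siNS and 942 in that with siC/EBPb. Of the other acute phase genes, 6 in place of 12 fell in iWAT aKO with siNS when those 2 groups were fitted alone. Of adipocyte markers, 6 in place of 2 rose there with the replicate block and 1 with the 2 groups alone, and 5 in place of 3 fell with siC/EBPb in iWAT Cont with the 2 groups alone. That setting also gave 1 in place of 3 fibroblast and progenitor markers that rose in iWAT aKO with siNS, 5 in place of 8 that fell with siC/EBPb in iWAT aKO, 3 in place of 5 mesothelial markers that fell in iWAT aKO with siC/EBPb and 2 in place of 4 that rose in eWAT Cont.

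Depth limits Serpina3f, Serpina3h and the Lcn2 and Serpina3m levels with siC/EBPb, each a few reads a library, and every iWAT aKO siNS value that uses the shallow library.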
